A study of Mus musculus with 16 samples.

Results

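The 39 genes described here encode the machinery that copies DNA and separates chromosomes, and their RNA is the usual readout of whether a cell population divides. They were taken by name (Mki67, Top2a, Pcna, 6 Mcm genes, cyclins, mitotic kinases, spindle proteins and others), and all 39 were found among the 54456 gene rows of the table. They fall into 7 sets by role, with 11 genes of origin licensing, helicase and fork, 4 of nucleotide supply, 7 for cyclins, Cdk1 and E2f1, 4 of chromosome structure, 6 for mitotic kinases, chromosomal passengers and checkpoint, 5 of the spindle and 2 of the anaphase-promoting complex.

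Bulk RNA was sequenced from T cells of the OT-I strain, a mouse line with 1 transgenic receptor, specific for a peptide of ovalbumin, on most of its CD8 T cells. The groups were T cells of visceral adipose tissue (VAT) of mice given a high-fat diet (HFD), T cells of lymph nodes (LN) of HFD mice, VAT T cells of lean mice given standard chow, and LN T cells of lean mice, each with 4 libraries named as biological replicates. The HFD supplied 60% of calories as fat, and both diets lasted 8 weeks. OT-I was the only genotype, and age and sex of the mice are not given. The labels call the cells freshly isolated in 1 field, while the design text places an overnight culture before a sort for T cells, so division before and during such a culture cannot be told apart. The sample names also carry the unexplained term Neg-OVA. Whether each library is 1 animal or a pool is not stated, and p-values measure the spread between libraries.

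A cell commits to division when cyclin E and E2F transcription factors switch on the genes of S phase. Cdc6 and Cdt1 load the Mcm ring on origins, Cdc45 and the GINS complex turn it into the active helicase, and Pcna clamps the polymerases to DNA. Later, cyclin A and cyclin B with Cdk1, Plk1 and the Aurora kinases drive mitosis, until Cdc20 and Ube2c let the anaphase-promoting complex destroy the cyclins. In resting cells these promoters are held down by pocket-protein complexes, through E2F sites at many replication genes and through cell cycle homology regions (CHR) at many mitotic genes. Resting T cells keep the program low, and activation through the receptor turns it on within days.

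RefSeq promoters (build GRCm38.p6, 250 bases before to 50 after the start) were matched for 32 of the 39 genes, in 33 windows. The E2F letters TTTNNCGC, searched on both strands, stood in 7 of 14 windows of replication and nucleotide genes (50%), in 1 of 19 windows of the other members (5.26%) and in 5.17% of all 32851 windows. The CHR letters TTTGAA stood in 2 of 14 windows of replication and nucleotide genes (14.3%), in 12 of 19 of the others (63.2%) and in 17.9% of all windows. CCAAT boxes, which often lie beside a CHR, stood in 25 of the 33 windows (75.8%) and in 37.4% of all windows. The 4 windows below belong to genes that the results turn on, with capitals for every E2F and CHR match on either strand. Hmgb2 (chr8:57511593-57511892, plus strand), the member that differed between tissues, holds 2 CHR matches. Mcm6 (chr1:128359656-128359955, minus strand), which every library held, has E2F matches and no CHR match. Cdk1 (chr10:69352863-69353162, minus strand) and Plk1 (chr7:122159185-122159484, plus strand), which 3 libraries each held, both have a CHR match, and Cdk1 has E2F matches as well. These 4 are examples. Among member windows, CHR letters stood in 3 of 9 for genes that all libraries held and in 11 of 24 for the rest. E2F letters stood in 3 of 9 and 5 of 24. A match describes the letters and does not show that a factor binds there.
Hmgb2: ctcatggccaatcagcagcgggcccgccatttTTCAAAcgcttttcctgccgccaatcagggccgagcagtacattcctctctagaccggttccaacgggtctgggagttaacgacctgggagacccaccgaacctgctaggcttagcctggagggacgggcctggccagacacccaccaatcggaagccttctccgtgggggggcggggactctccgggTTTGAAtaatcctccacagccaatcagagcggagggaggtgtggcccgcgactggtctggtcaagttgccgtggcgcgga
Mcm6: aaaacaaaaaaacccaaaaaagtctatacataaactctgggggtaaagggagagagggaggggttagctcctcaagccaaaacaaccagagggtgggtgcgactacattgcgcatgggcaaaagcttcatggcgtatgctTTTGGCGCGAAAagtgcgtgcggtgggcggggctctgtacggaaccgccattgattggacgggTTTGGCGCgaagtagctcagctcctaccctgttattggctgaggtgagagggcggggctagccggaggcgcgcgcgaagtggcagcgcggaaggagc
Cdk1: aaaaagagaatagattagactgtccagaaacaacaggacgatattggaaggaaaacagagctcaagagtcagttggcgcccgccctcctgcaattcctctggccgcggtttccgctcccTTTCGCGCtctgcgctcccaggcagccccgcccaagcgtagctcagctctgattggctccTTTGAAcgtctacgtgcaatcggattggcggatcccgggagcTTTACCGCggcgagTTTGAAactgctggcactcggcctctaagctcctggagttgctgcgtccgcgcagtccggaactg
Plk1: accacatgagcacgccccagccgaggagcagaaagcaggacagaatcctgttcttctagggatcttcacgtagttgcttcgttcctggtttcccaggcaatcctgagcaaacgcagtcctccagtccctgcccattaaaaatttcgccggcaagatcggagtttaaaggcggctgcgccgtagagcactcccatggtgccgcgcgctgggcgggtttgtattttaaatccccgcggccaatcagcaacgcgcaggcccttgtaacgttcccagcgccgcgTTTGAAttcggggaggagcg

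Library totals were 40212388 to 65957407 counts, and 3 counts, taken here as the floor of detection, were 0.0437 to 0.0803 CPM. CPM are counts per library size in the usual unit, with library sizes normalised by TMM. Such floors cover counting error only, since reads amplified by PCR are not independent molecules. The T cell markers summed to 10434 to 11165 CPM in HFD VAT, 8956 to 9997 in HFD LN, 9327 to 11994 in Lean VAT and 8893 to 10617 in Lean LN, with none of 12 markers at 0 in any group. The 12 B cell markers summed to 169 to 359.8 CPM in HFD VAT against 1736 to 2653 in HFD LN, and to 85.7 to 221 in Lean VAT against 1624 to 3114 in Lean LN, with Fcmr at 0 in both VAT groups. The 8 natural killer markers summed to 571 to 750.0 CPM in HFD VAT against 29.1 to 125 in HFD LN, and to 530.1 to 724 in Lean VAT against 41.2 to 114 in Lean LN, with Ncr1 at 0 in all groups but Lean VAT. The 13 macrophage and dendritic cell markers reached 182 CPM in HFD VAT against 16.4 in HFD LN, and 113 in Lean VAT against 7.65 in Lean LN, and C1qa was at 0 in every group. Germinal centre and plasma cell markers (10) summed to 242 to 513 CPM in HFD VAT against 56.6 to 277 in HFD LN, and to 243 to 261 in Lean VAT against 119 to 204 in Lean LN. Stromal, adipocyte and mesothelial markers (12) summed to 43.6 to 139 CPM in HFD VAT against 124 to 205 in HFD LN, and to 29.5 to 79.4 in Lean VAT against 71.2 to 168 in Lean LN. Of genes that the other libraries of a group held at a median of 10 CPM or more, 11.4% were at or under the floor in HFD VAT replicate 1, 11.5% in HFD VAT replicate 3 and 13.3% in Lean VAT replicate 1, against 0.818% to 5.45% in the other libraries. In the tissue comparisons, the fold changes printed below are also given without these 3 libraries.

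The first question was whether the program as a whole was present. It was split: 10 of the 39 genes (Pcna, Mcm2, Mcm4, Mcm6, Mcm7, Cdt1, Rrm1, Stmn1, Cenpa and Hmgb2) were over the floor in all 16 libraries, while 25 were over it in fewer than 14 libraries and 3 (Cdk1, Aurka and Plk1) in 3 libraries each. Of 624 values (39 genes in 16 libraries), 227 were at or under the floor (36.4%), 47 lay between 4 and 99 counts (7.53%) and 350 were at 100 counts or more (56.1%). Among the 25 patchy genes, 220 of 400 values were at or under the floor (55.0%), 42 lay between 4 and 99 counts (10.5%) and 138 were at 100 or more (34.5%), with a median of 492 counts where they were over the floor. A patchy gene was therefore mostly either at or near 0 in a library or there with many counts, and seldom between.

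**Figure D1:**
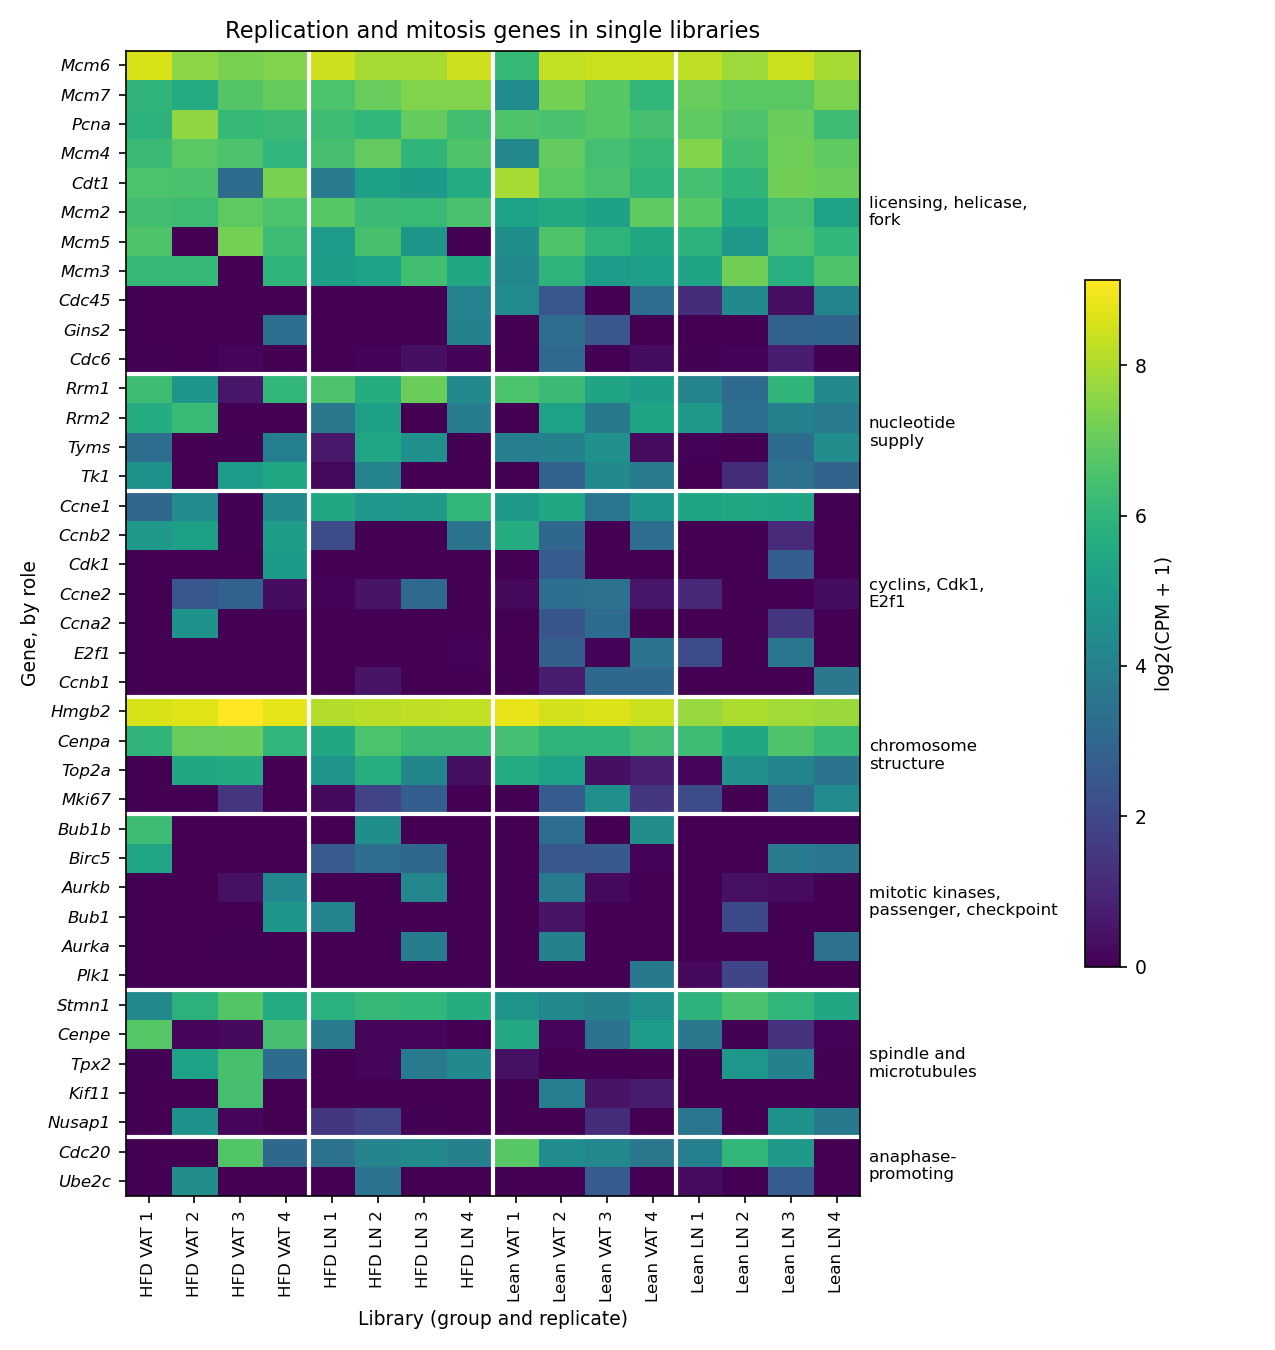
Levels of the 39 genes (rows, grouped by role) in the 16 libraries (columns, by group and replicate), as log2(CPM + 1). Mcm6, Pcna and Hmgb2 are bright in every column, while rows such as Cdk1, Plk1, Bub1b and Kif11 are dark with a few bright cells in different libraries.

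Patchiness was more frequent in these genes than in others of like level. Of the members tested with a mean of 0.2 to 5 CPM (11 genes), 61.4% of values were at or under the floor, against 27.6% in the other genes tested at that level. At 5 to 20 CPM the shares were 45.8% (9 members) and 19.8%, and at 20 to 50 CPM they were 17.2% (4 members) and 7.51%. At 50 to 100 CPM the shares were close, at 2.08% (9 members) and 2.29%. These shares are a description, without a test, and values of 1 library share its depth and quality.

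**Figure D2:**
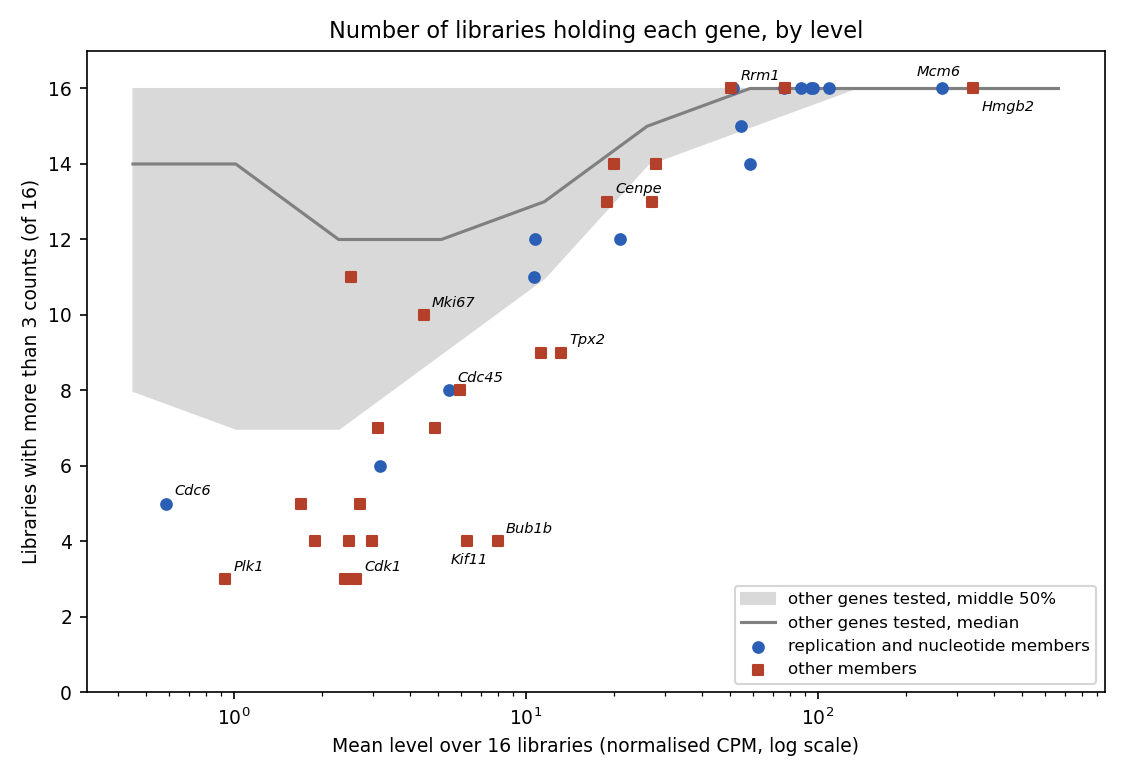
Number of libraries with more than 3 counts (vertical axis, of 16) against mean CPM on a log axis, for each member (circles, replication and nucleotide genes; squares, the others) and for the other genes tested (line, median; grey band, middle 50% of genes). Most members under 20 CPM, Cdk1 and Bub1b among them, lie below the band, while Hmgb2 and Mcm6 are in all 16 libraries.

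Libraries differed in how many of the 39 genes they held. HFD VAT libraries held 20, 21, 21 and 24, HFD LN libraries 24, 27, 24 and 19, Lean VAT libraries 21, 35, 29 and 29, and Lean LN libraries 25, 22, 32 and 24. All groups overlap, and replicate 2 of Lean VAT, with 35, was missing Plk1, Tpx2, Nusap1 and Ube2c. The 3 libraries with the largest missing share held 20, 21 and 21 members, and HFD VAT libraries had a count for 16436 to 17395 genes, against 18110 to 19325 in HFD LN, 17143 to 19881 in Lean VAT and 19021 to 20217 in Lean LN. The part of these library differences in the number of members held was not tested.

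**Figure D3:**
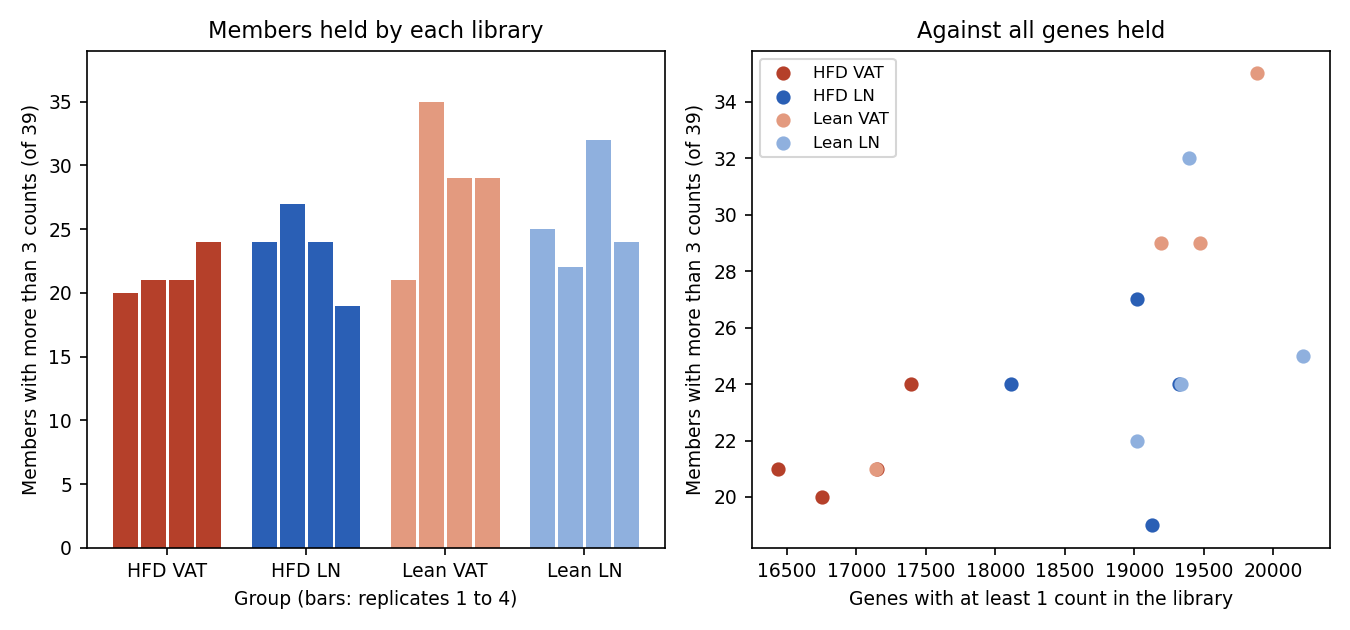
Left, members with more than 3 counts in each library (bars, replicates 1 to 4 of each group, of 39). Right, the same number against the genes with at least 1 count in the library. Lean VAT replicate 2 stands highest with 35, and HFD LN replicate 4 lowest with 19.

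In summed level the members came to 1679 to 1846 CPM in HFD VAT, 1386 to 1549 in HFD LN, 1493 to 1777 in Lean VAT and 1385 to 1756 in Lean LN. Hmgb2 and Mcm6 together held 32.4% to 48.3% of that sum, so it says little of the mitotic genes. The 25 patchy genes alone summed to 220.5 to 331 CPM in HFD VAT against 60.9 to 156 in HFD LN, and to 149 to 236 in Lean VAT against 76.3 to 157 in Lean LN. The patchy sums of HFD VAT and HFD LN did not overlap, and those of the lean groups did. HFD VAT without replicates 1 and 3, which lacked many genes, still lay above HFD LN, at 220.5 and 279 CPM. The genes with the highest levels in these sums differed in part between HFD VAT libraries. They were Cenpe and Bub1b in replicate 1, and Rrm2 and Tpx2 in replicate 2. Replicate 3 had Cdc20, Tpx2 and Kif11, and replicate 4 had Cenpe and Tk1, so Cenpe and Tpx2 recurred. The 25 patchy genes were set apart by detection in these same libraries, and their sums have no background from other genes of like level. The 58 further mitosis genes described below summed the other way, to 1256 to 2027 CPM in HFD VAT against 2259 to 2874 in HFD LN. In lean mice they came to 996 to 1382 CPM in VAT against 1804 to 2673 in LN. Smc4 alone averaged 1504 CPM in HFD LN and 1218 in Lean LN. In bulk RNA, fewer cells of a type and less RNA per cell cannot be told apart.

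Genes of licensing, helicase and fork were the steadiest set, with 6 of 11 over the floor in all 16 libraries. Mcm6, a subunit of the replicative helicase ring, had 387, 188, 152 and 167 CPM in HFD VAT, against 350.4, 244, 244 and 345 in HFD LN, and 68.1, 313, 341 and 348 in Lean VAT, against 304, 223, 341 and 243 in Lean LN. The low value of Lean VAT lies in 1 of the 3 libraries with many missing genes, and the groups overlap in both tissue comparisons. Mcm6 differed by -0.41 ± 0.42 (log2 fold change ± SE) between HFD VAT and HFD LN and by -0.05 ± 0.42 between Lean VAT and Lean LN, and neither passed the test (edgeR quasi-likelihood adjusted p = 0.740 and 0.998). Without the 3 libraries with many missing genes they were -0.75 (edgeR adjusted p = 0.0979) and 0.23 (edgeR adjusted p = 0.634), and without HFD VAT replicate 1 alone the HFD value was -0.81 (edgeR adjusted p = 0.347). Pcna, the polymerase clamp, averaged 99.4 ± 64.6 CPM in HFD VAT, 87.5 ± 25.8 in HFD LN, 94.1 ± 8.21 in Lean VAT and 105 ± 23.1 in Lean LN (SD, n = 4 each). The wide spread in HFD VAT is replicate 2, at 196 CPM, with the others at 58.4 to 74.8. Mcm2, Mcm4 and Mcm7, further ring subunits, had means of 60.4 to 139 CPM across the 4 groups.

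Mcm3 and Mcm5 showed that even ring subunits can be missing. Mcm3 had 0 counts in HFD VAT replicate 3, against 2636 to 3150 counts in the other HFD VAT libraries and 1927 to 3755 in HFD LN. Mcm5 had 0 counts in HFD VAT replicate 2 and in HFD LN replicate 4, and 1004 to 5778 counts in every other library. The 6 ring subunits act as 1 hexamer, yet in these 3 libraries 1 subunit was at 0 while Mcm2, Mcm4, Mcm6 and Mcm7 were over the floor.

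Cdt1, the loader that is destroyed when S phase starts, was over the floor everywhere, while its partner Cdc6 was over it in 5 libraries. Cdt1 had 92.7, 89.9, 8.33 and 157 CPM in HFD VAT, against 12.4, 35.1, 30.8 and 47.9 in HFD LN, and 243, 109.7, 90.7 and 60.5 in Lean VAT, against 84.2, 61.6, 140.1 and 135 in Lean LN. HFD LN is low throughout, and its libraries do not overlap those of Lean LN. The difference of HFD LN from Lean LN, at -1.74 ± 0.69 (log2 fold change ± SE), did not pass (edgeR adjusted p = 1.0, unadjusted p = 0.0255). Cdc6 reached 461 counts in Lean VAT replicate 2 and at most 34 counts elsewhere. Cdc45 and Gins2, of the active helicase, were over the floor in 8 and 6 libraries, and both together in 4. Cdc45 had 0, 0, 0 and 1 count in HFD VAT, against 0, 0, 1 and 739 in HFD LN, and 893, 277, 0 and 371 in Lean VAT, against 87, 1097, 16 and 886 in Lean LN. In HFD it was held by 1 of 8 libraries and in lean mice by 7 of 8. Of all genes tested, 18.4% to 26.4% were at or under the floor in HFD VAT libraries and 11.5% to 15.7% in HFD LN. The shares were 8.93% to 25.6% in Lean VAT and 10.0% to 15.2% in Lean LN. How many genes split by diet in this way was not tested. edgeR called no difference for Cdc45, with unadjusted p = 0.0106 and adjusted p = 0.448 between HFD VAT and Lean VAT.

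Nucleotide supply was in between, with 1 of 4 genes in all libraries. Rrm1 and Rrm2, the large and small subunits of ribonucleotide reductase, were together over the floor in 12 libraries. Rrm1 had 77.8, 26.6, 0.455 and 66.0 CPM in HFD VAT, against 95.1, 49.3, 136 and 19.4 in HFD LN, and 93.6, 73.6, 39.7 and 33.1 in Lean VAT, against 15.9, 8.14, 62.4 and 19.2 in Lean LN. The groups overlap, and 1 HFD VAT library has nearly none. Rrm2, the subunit that is limiting in S phase, was at 0 counts in HFD VAT replicates 3 and 4, HFD LN replicate 3 and Lean VAT replicate 1, and had 505 to 3071 counts in the others. Tyms, which makes thymidylate, was over the floor in 12 libraries and Tk1, the thymidine kinase of S phase, in 11, with both in 9. No gene of the set passed the test in any comparison.

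Cyclins, Cdk1 and E2f1 were thinly held, with a median of 5 libraries per gene. Cdk1, the kinase that starts mitosis, had 1322 counts in HFD VAT replicate 4, 318 in Lean VAT replicate 2 and 295 in Lean LN replicate 3, and 0 counts in every other library, HFD LN included. In those 3 libraries it reached 30.8, 5.31 and 5.71 CPM, and elsewhere the depth allows at most 0.0803 CPM. Its cyclins did not run with it throughout: Ccnb2 was present in all 3 of these libraries, Ccna2 in 2 and Ccnb1 in 1 (Lean VAT replicate 2). Ccnb2 was over the floor in 9 libraries, and 6 of those had no Cdk1 count. Ccnb1 had at most 1 count in every HFD VAT library, and reached 342 counts in Lean VAT against 600 in Lean LN, where replicate 4 alone held it. Cdk1, like Aurka and Plk1, was removed by the low-count filter and has no test.

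E2f1, the S phase transcription factor, had 0 counts in all 4 HFD VAT libraries, against 0, 0, 0 and 3 in HFD LN, and 0, 344, 3 and 418 in Lean VAT, against 226, 0, 568 and 0 in Lean LN. No HFD library was over the floor, and 4 of the 8 lean libraries were. The floor shares of all genes tested, given with Cdc45, apply here as well. edgeR gave unadjusted p = 0.0141 and adjusted p = 0.472 between HFD VAT and Lean VAT, where DESeq2 called it lower. Ccne1, cyclin E1 of S phase entry, had 7.15, 20.1, 0.0268 and 19.7 CPM in HFD VAT, against 42.5, 28.4, 29.6 and 65.5 in HFD LN. Every HFD VAT library lies below every HFD LN library, yet the log2 fold change of -1.82 ± 1.41 (SE) did not pass (edgeR adjusted p = 0.600). Without the 3 libraries with many missing genes, among them the HFD VAT library at 0.0268 CPM, it was -1.07 (edgeR adjusted p = 0.764). In the lean groups Ccne1 overlapped, at 10.9 to 42.7 CPM in Lean VAT against 0.0373 to 42.7 in Lean LN. Ccne2, cyclin E2, was over the floor in 11 libraries with at most 9.92 CPM, and Ccna2, the cyclin of S phase and G2, in 4 libraries with at most 25.2 CPM.

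The chromosome structure and chromatin set held the member that differed between tissues. Hmgb2, a DNA-bending chromatin protein abundant in dividing cells, had 380.1, 409.6, 562 and 440.3 CPM in HFD VAT, against 272, 289, 306 and 316 in HFD LN. Every HFD VAT library was above every HFD LN library. Hmgb2 averaged 448 ± 79.8 CPM in HFD VAT and 296 ± 19.2 in HFD LN (SD, n = 4 each), with a log2 fold change of 0.60 ± 0.14 (SE; edgeR quasi-likelihood, Benjamini-Hochberg adjusted p = 0.0282; higher in 4 of 4 libraries). In lean mice it had 449.8, 363, 399 and 338 CPM in VAT, against 209, 259, 230.2 and 218 in LN, again with no overlap. The means were 387 ± 48.6 CPM in Lean VAT and 229 ± 21.8 in Lean LN (SD, n = 4 each), with a log2 fold change of 0.76 ± 0.14 (SE; edgeR adjusted p = 0.00804; higher in 4 of 4 libraries). The HFD call was lost in 11 of 18 other settings, among them those without HFD VAT replicate 3, without HFD VAT replicate 4 or without any 1 HFD LN library, with edgeR adjusted p of 0.0523 to 0.110, and without the 3 libraries with many missing genes it was 0.51 (log2; edgeR adjusted p = 0.0426). The lean call held in all 18 settings, with 0.65 (log2; edgeR adjusted p = 0.00677) without those libraries. Of the marker sums given above, natural killer and macrophage sums were higher in VAT on both diets without overlap, the germinal centre and plasma cell sum was higher in VAT without overlap in lean mice and with overlap in HFD mice, the B cell sum was lower in VAT on both diets without overlap, and the sum of adipocyte and stromal markers had a lower median in VAT on both diets, with overlap. Their part in the Hmgb2 difference was not tested.

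No diet difference of Hmgb2 passed the test. HFD VAT overlapped Lean VAT, at 0.21 ± 0.14 (log2 fold change ± SE; edgeR adjusted p = 0.901). HFD LN, at 272 to 316 CPM, lay above Lean LN, at 209 to 259 CPM, in every library, with a log2 fold change of 0.37 ± 0.14 (SE) and an unadjusted p = 0.0222 (edgeR adjusted p = 1.0). The difference between the tissue effects of the diets was -0.16 ± 0.20 (log2 ± SE; edgeR adjusted p = 1.0), so no difference between them was shown.

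Mki67, a coat protein of mitotic chromosomes and the standard proliferation antigen, was low and patchy. It had 0, 0, 62 and 0 counts in HFD VAT, against 10, 132, 255 and 0 in HFD LN, and 0, 317, 1091 and 71 in Lean VAT, against 226, 0, 402 and 1070 in Lean LN. The groups overlap, and 1 of 4 HFD VAT libraries was over the floor where 3 of 4 were in each other group. HFD VAT libraries also had larger floor shares over all genes tested than most others, as given with Cdc45. Mki67 averaged 0.415 ± 0.830 CPM in HFD VAT, 2.09 ± 2.63 in HFD LN, 7.56 ± 10.7 in Lean VAT and 7.76 ± 8.75 in Lean LN (SD, n = 4 each), and no comparison passed (lowest edgeR adjusted p = 0.760). Top2a, the topoisomerase that untangles sister chromatids, was over the floor in every library with Mki67 and in 4 more. It had 0, 43.1, 47.2 and 0.0233 CPM in HFD VAT, against 25.3, 50.9, 17.2 and 0.255 in HFD LN, and 48.0, 38.0, 0.298 and 0.722 in Lean VAT, against 0.102, 23.4, 16.5 and 10.4 in Lean LN. Each group holds libraries above 10 CPM beside libraries with less than 1 CPM. Cenpa, the centromeric histone, was steady at 96.1 ± 38.4 CPM in HFD VAT, 70.7 ± 19.9 in HFD LN, 71.3 ± 12.2 in Lean VAT and 71.0 ± 21.8 in Lean LN (SD, n = 4 each).

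**Figure D4:**
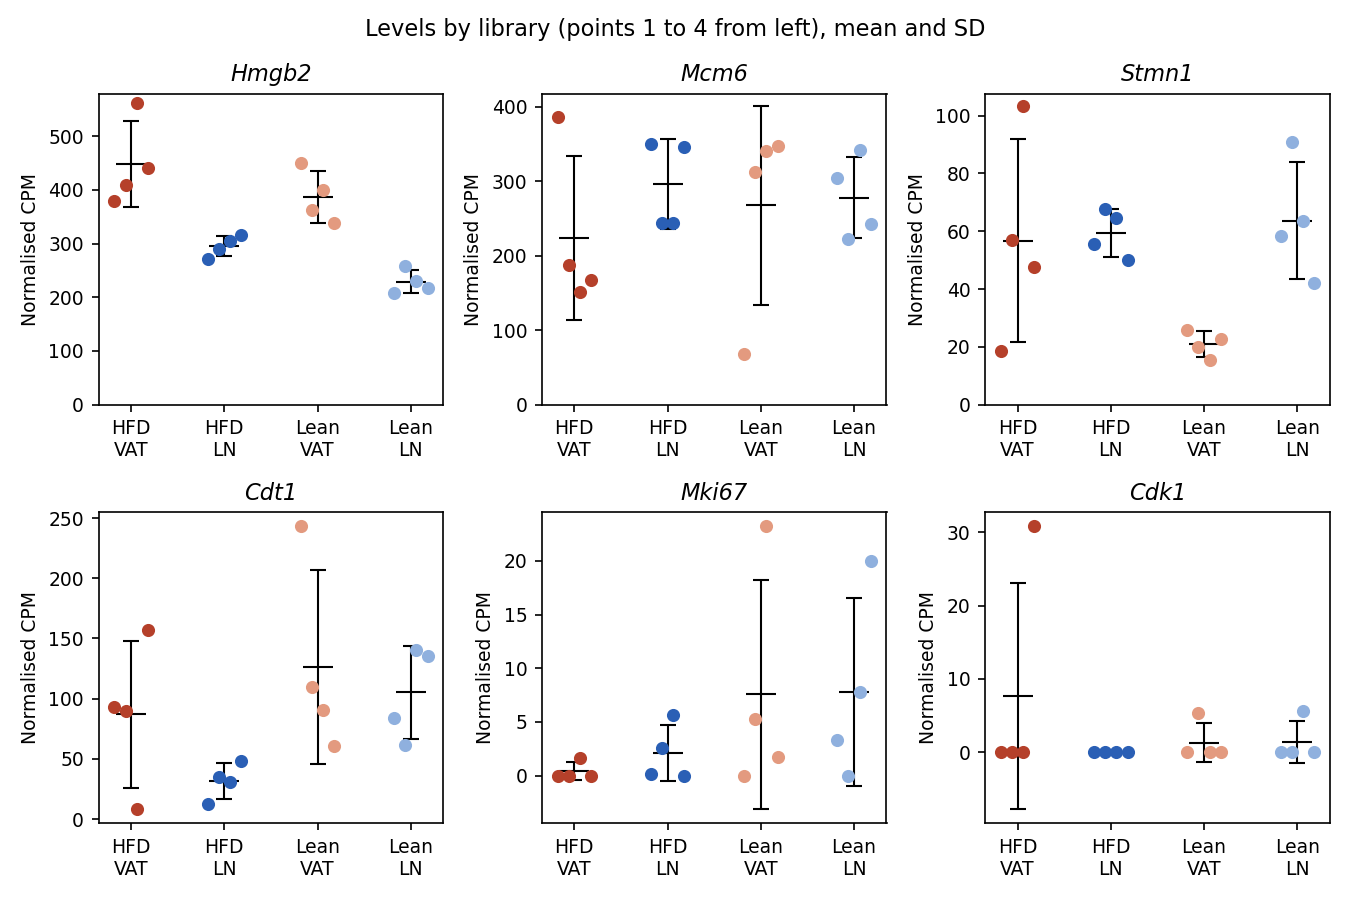
Normalised CPM of 6 members in each library (points, replicates 1 to 4 from left), with mean and SD as bars, in HFD VAT, HFD LN, Lean VAT and Lean LN. Hmgb2 in VAT lies above LN on both diets, Stmn1 is lowest in Lean VAT, and Cdk1 is at 0 in all but 3 libraries (SD bars that reach below 0 come from such values).

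Mitotic kinases, chromosomal passengers and checkpoint genes were the most patchy, with 3 to 8 libraries per gene and none in all. Bub1b, the checkpoint kinase BubR1, had 3438 counts in HFD VAT replicate 1, 1142 in HFD LN replicate 2, 527 and 897 in Lean VAT replicates 2 and 4, and at most 1 count in every other library. Bub1, its partner at the kinetochore, had 1197 counts in HFD VAT replicate 4, 931 in HFD LN replicate 1, 24 in Lean VAT replicate 2 and 175 in Lean LN replicate 2. The 2 partners were over the floor together in 1 library, Lean VAT replicate 2. Aurkb and Birc5, of the chromosomal passenger complex, were together in 4 libraries out of 11 that held either. Aurka, the spindle pole kinase, was over the floor in 3 libraries and its activator Tpx2 in 9, with both in 1. Plk1, the polo-like kinase of mitosis, had 499 counts in Lean VAT replicate 4 and 152 and 11 in Lean LN replicates 2 and 1, and at most 1 count elsewhere.

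In the spindle set Stmn1 was over the floor everywhere and the motors were not. Stmn1, the microtubule destabiliser stathmin, had 18.7, 57.0, 103 and 47.7 CPM in HFD VAT, against 55.5, 67.6, 64.7 and 49.9 in HFD LN, and 25.7, 19.9, 15.3 and 22.8 in Lean VAT, against 58.4, 90.7, 63.4 and 42.2 in Lean LN. Lean VAT lies below Lean LN in every library, and the HFD groups overlap. The means were 20.9 ± 4.40 CPM in Lean VAT and 63.7 ± 20.2 in Lean LN (SD, n = 4 each), and the log2 fold change of -1.61 ± 0.46 (SE) did not pass (edgeR adjusted p = 0.0867). It passed without the 3 libraries with many missing genes (-1.75, edgeR adjusted p = 0.0105), with DESeq2 (adjusted p = 0.000490) and with limma voom (adjusted p = 0.0155), and over all 18 other settings the adjusted p was 0.000490 to 0.226. Kif11, the motor that pushes spindle poles apart, had 3183 counts in HFD VAT replicate 3 and 0 in the other 3 HFD VAT libraries and in all of HFD LN. In lean mice it had 844, 19 and 27 counts in 3 VAT libraries, against at most 1 count in LN. Cenpe, the kinetochore motor, had 104, 0.114, 0.187 and 86.2 CPM in HFD VAT, against 12.4, 0.118, 0.0881 and 0 in HFD LN. Its large mean in HFD VAT, 47.6 ± 55.3 CPM, rests on 2 libraries. Tpx2 and Nusap1, which bind spindle microtubules, were over the floor in 9 and 7 libraries.

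Of the anaphase-promoting complex genes, Cdc20, its activator, was over the floor in 13 libraries and Ube2c, its ubiquitin-conjugating enzyme, in 5, with both in 4. Cdc20 had 0, 0, 99.95 and 7.20 CPM in HFD VAT, against 9.80, 15.9, 19.6 and 14.6 in HFD LN, and 107, 21.0, 17.7 and 11.4 in Lean VAT, against 14.5, 64.9, 29.2 and 0.0187 in Lean LN. The 2 highest values, near 100 CPM, are in 2 of the 3 libraries with many missing genes.

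Levels of different genes were set side by side per kilobase of the longest protein-coding transcript, which need not be the transcript expressed. The mean over 16 libraries, those at or under the floor included, was 129 CPM per kb for Hmgb2, 63.5 for Pcna, 61.0 for Mcm6, 52.6 for Cenpa, 47.3 for Stmn1 and 39.9 for Cdt1. At the other end were Cdk1 with 0.597, Mki67 with 0.443, Plk1 with 0.424 and Cdc6 with 0.126 CPM per kb. On this scale the mitotic kinases Cdk1 and Plk1 and the proliferation antigen Mki67 thus lay below the Mcm ring, Pcna and Hmgb2. Cdc20 had 15.1 CPM per kb, below the 6 Mcm subunits (17.3 to 61.0).

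Tests over all genes called few members. Of the 36 members that passed the filter on low counts, edgeR called Hmgb2 alone between HFD VAT and HFD LN, as higher, where 4.56% of the 15675 genes tested were called (2.68% higher and 1.88% lower). DESeq2 called Cdc45 and E2f1 lower as well, where it called 2578 of 15675 genes (1186 higher and 1392 lower). E2f1 had at most 3 counts in any library of these groups, and Cdc45 was over the floor in 1 of them, HFD LN replicate 4. The median log2 fold change was 0.31 over the members tested and -0.10 over all genes tested, with 22 members positive and 14 negative, and the members' median was -0.21 with limma voom and 0.00 without the 3 libraries that lacked many genes. At an unadjusted p under 0.05 were 4 members, and 18.8% of all genes. Without overlap between libraries were Ccne1, lower, and Hmgb2, higher, where 15.2% of all genes had no overlap (7.21% higher and 8.01% lower). Between Lean VAT and Lean LN, edgeR called Hmgb2 alone, as higher, where 3.04% of genes were called (2.12% higher and 0.919% lower). DESeq2 called Tpx2 and Stmn1 lower as well, and limma voom called Kif11 higher and Stmn1 lower. Of all 15675 genes, DESeq2 called 1569 there and limma voom 1350. The medians were 0.10 over members and 0.00 over all genes. At an unadjusted p under 0.05 were 5 members, and 13.8% of all genes. Stmn1, lower, and Hmgb2, higher, had no overlap there, as did 12.9% of all genes (7.24% higher and 5.7% lower). A single call among 36 genes is near the share over all genes and is no result about the members as a set.

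With edgeR no member was called between diets in either tissue. Between HFD VAT and Lean VAT none was called by edgeR, where 0.0574% of genes were (0.00638% higher and 0.051% lower), and none was without overlap, where 3.22% were (1.12% higher and 2.1% lower). At an unadjusted p under 0.05 there were 6 members (Cdc45, Ccnb1, Cdc6 and E2f1 lower, Stmn1 and Tpx2 higher), as against 8.08% of all genes. DESeq2 called 4 members (Cdc45 and E2f1 lower, Stmn1 and Tpx2 higher), where it called 769 of 15675 genes (158 higher and 611 lower). The members' median log2 fold change was 0.32 with edgeR and -1.42 with limma voom, which called no member. Over all genes edgeR called 1 higher and 8 lower, and limma voom 21 higher and 11 lower. Between HFD LN and Lean LN edgeR called none of the members and 0.0% of all genes, and 3 members had an unadjusted p under 0.05 as did 3.37% of all genes. DESeq2 and limma voom called no member there, where they called 236 and 3 of all genes. Cdt1, lower, and Hmgb2, higher, were without overlap, as were 2.26% of genes (1.07% higher and 1.19% lower). The difference between the diet effects of the 2 tissues called no member in edgeR, where 0.0191% of genes were called, with 3 members at an unadjusted p under 0.05, as were 6.16% of genes. DESeq2 called E2f1 lower for that difference, where it called 635 of 15675 genes. The comparisons share groups, so their member values are not independent of each other.

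**Figure D5:**
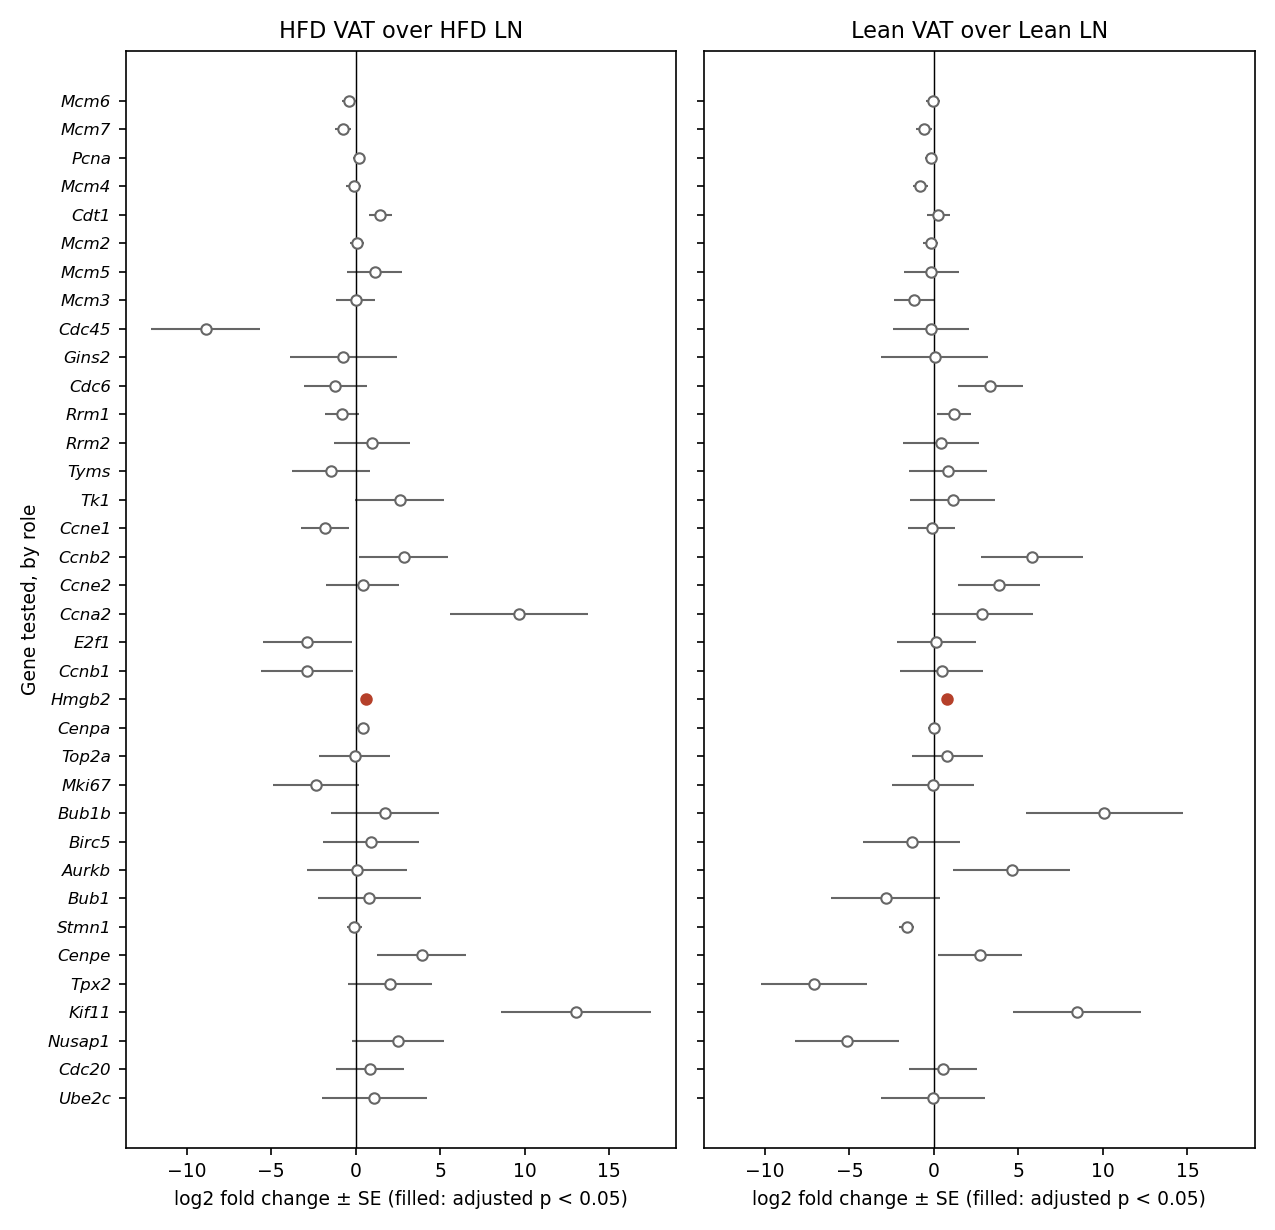
Log2 fold changes of the 36 members tested (rows, by role) with SE, for HFD VAT over HFD LN (left) and Lean VAT over Lean LN (right), with filled points for an edgeR adjusted p under 0.05. Hmgb2 is the filled point in both panels, and the widest bars belong to genes that few libraries held.

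Among other genes of the same processes, few passed the test. Of 46 further replication genes (42 tested), none was called in any of the 5 comparisons by edgeR, with 0 to 2 at an unadjusted p under 0.05, and 20 of the 46 (43.5%) were over the floor in all libraries. Of 58 further mitosis genes (43 tested), 4 (6.90%) were over the floor in all libraries, against 10 of the 39 members (25.6%) and 48.6% of all genes tested. The shares of the lists include genes that the low-count filter removed. The share of all genes tested leaves such genes out, so it stands on another base. Between tissues edgeR called 2 of the 43 mitosis genes in HFD mice and 1 in lean mice, as lower, where 1.88% and 0.919% of all genes were called lower. Smc4, a core subunit of the condensin complexes, was lower in VAT on both diets, with 459 ± 193 CPM in HFD VAT against 1504 ± 193 in HFD LN (edgeR adjusted p = 0.00297) and 266 ± 88.3 CPM in Lean VAT against 1218 ± 290.2 in Lean LN (edgeR adjusted p = 0.000577; SD, n = 4 each). Cks1b, a small Cdk-binding subunit, was at 0 in all HFD VAT libraries, against 0 to 5.13 CPM in HFD LN (edgeR adjusted p = 0.0254). Cks1b was thus also at 0 in part of HFD LN, and the floor shares given with Cdc45 apply to it. For genes outside the members, calls in other settings are not given here. No other mitosis gene of the list was called.

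Genes that hold T cells at rest did not move one way. Of 29 quiescence and repression genes, all tested, 2 rose and 2 fell in HFD VAT relative to HFD LN, and 1 rose and 3 fell in Lean VAT relative to Lean LN (edgeR). These are 4 of 29 in each comparison, where 4.56% and 3.04% of all genes were called. They are calls of the fit with all libraries, and whether they hold in other settings is not given here. Klf2, a transcription factor that keeps naive T cells resting and recirculating, fell to 199 ± 31.0 CPM in HFD VAT, against 954 ± 160.1 in HFD LN (edgeR adjusted p = 0.000105), and to 236 ± 93.5 CPM in Lean VAT, against 914 ± 128 in Lean LN (edgeR adjusted p = 0.000410; SD, n = 4 each). Btg2, an antiproliferative deadenylase adaptor, was higher in VAT, with 556 ± 127 CPM in HFD VAT against 296 ± 48.7 in HFD LN (edgeR adjusted p = 0.0273) and 557 ± 144 CPM in Lean VAT against 302 ± 47.8 in Lean LN (edgeR adjusted p = 0.0414; SD, n = 4 each). Slfn2, a schlafen protein needed for T cell quiescence, rose in HFD VAT with 1552 ± 136 CPM, against 953 ± 164 in HFD LN (SD, n = 4 each; edgeR adjusted p = 0.00609). E2f5, a repressive E2F, was at 0 to 0.0536 CPM in HFD VAT, against 16.2 to 39.3 in HFD LN (edgeR adjusted p = 0.0115). Tsc22d3 and Foxp1, which also restrain T cell activation, fell in Lean VAT to 186 ± 59.7 and 194 ± 30.2 CPM, against 402 ± 58.3 and 445 ± 166 CPM in Lean LN (SD, n = 4 each; edgeR adjusted p = 0.0148 and 0.0320). The sums of markers listed for other cell types that differ between VAT and LN apply to these genes as well, and their part was not tested. Which cells held that marker RNA was not determined.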

How the data were processed

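RNA of 16 bulk libraries, 4 in each of 4 groups, was analysed from 1 table of raw counts per gene. Kallisto 0.42.4 and DESeq2 are named per the submitters' processing notes, which also give the human build GRCh38, although the deposited count table holds mouse symbols; how kallisto estimates became whole counts is not given in the sources used here. The library kit and sequencer are described differently in different label fields, and 1 protocol field describes human fibroblasts. The deposited counts were tested with edgeR 4.0.16 (R 4.3.3; TMM, filterByExpr, robust quasi-likelihood, all 4 groups in 1 fit), with Benjamini-Hochberg adjustment over 15675 genes and a threshold of 0.05. Estimates of spread were large (common dispersion 1.52). DESeq2 1.42.0, limma voom 3.58.1, other scalings and filters, a replicate block and leaving out each library were alternatives. The edgeR fit was also run on simulated data, where recovery of changed genes was required only at a fixed dispersion far below the common dispersion of these data. The power of the test at the spread of these data is not given here. A gene was held by a library with more than 3 counts. Transcript lengths were those of the longest protein-coding transcript of each gene in GENCODE M21. The members and gene lists were chosen with earlier results of these data known. All 39 members were described. Of the other lists, those with the smallest adjusted p that passed, up to 4 in each direction and comparison, were named.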

Additional observations from a re-analysis of the deposited data

Results flagged for a closer look

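In 51 of 144 gene-by-group sets of 4 libraries (35.4%), 1 library stood far from the other 3 by Dixon's ratio. The cut used gives about 1 in 20 by chance only for normally distributed values. A set with 1 library above 0 and the rest at 0 passes it by construction, so the share cannot be read against chance. Of the 51 flagged values, 47 stood high and 4 low, in 27 genes, and most come from genes that were at or near 0 in the rest of the group. The levels below are CPM. In HFD VAT replicate 1, Mcm6 (387), Birc5 (40.1) and Bub1b (74.995) stood high. In HFD VAT replicate 2, Pcna (196), Ccna2 (25.2), Ube2c (22.0) and Nusap1 (24.7) stood high. HFD VAT replicate 3 had high Mki67 (1.66), Cdc20 (99.95) and Kif11 (85.2), and low Mcm3 (0) and Ccnb2 (0.0268). HFD VAT replicate 4 had high Cdk1 (30.8), Bub1 (27.9), Aurkb (18.4) and Gins2 (9.18).

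Among the HFD LN libraries, replicate 1 was high for Bub1 (15.9) and Cenpe (12.4), and replicate 2 for Ccnb1 (0.393), Bub1b (22.4), Tk1 (15.96) and Ube2c (10.2). Replicate 3 of HFD LN was high for Ccne2 (7.75), Aurka (13.5) and Aurkb (17.8), and replicate 4 for Cdc45 (15.7) and Gins2 (15.3). Lean VAT replicate 1 was low for Mcm6 (68.1) and high for Cdc20 (107) and Tpx2 (0.317). Lean VAT replicate 2 was high for Cdk1 (5.31), Bub1 (0.401), Aurka (15.004), Aurkb (12.6), Cdc6 (7.69) and Kif11 (14.1), and its summed level over the 39 genes (1777) also stood above the other Lean VAT libraries. Lean VAT replicate 3 was high for Ube2c (5.30) and Nusap1 (1.30), and replicate 4 for Mcm2 (120) and Plk1 (12.015).

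Among the Lean LN libraries, replicate 1 was high for Cenpe (11.5) and replicate 2 for Bub1 (3.14) and Plk1 (2.73). Replicate 3 of Lean LN was high for Cdk1 (5.71), Ccna2 (1.72), Ccnb2 (1.16), Cdc6 (0.658) and Ube2c (5.26). Replicate 4 was high for Ccnb1 (11.2) and Aurka (9.73) and low for Ccne1 (0.0373).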

How the results depend on the processing

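Of 3266 log2 fold changes of single members recomputed in other settings, 258 (7.90%) had another sign than reported or came to 0, in 101 of 180 gene-by-comparison values; 40 of these were with limma voom, 24 without the 3 libraries that lacked many genes and 22 with the replicate block, and 0 were called in either setting. Among fold changes printed above, this concerns Mcm6 in Lean VAT against Lean LN (-0.05), which was 0.13 with limma voom, 0.23 without the 3 libraries and -0.21 to 0.26 on leaving out 1 library. Hmgb2 in Lean VAT against Lean LN passed in all 18 other settings (edgeR, DESeq2 or limma adjusted p up to 0.0494). Between HFD VAT and HFD LN the count of members called higher was 0, against 1, with upper quartile scaling, with no filter, with the replicate block, with only the groups compared and with genes of at least 50 CPM, and 0 to 1 on leaving out 1 library. DESeq2 called 2 members lower there (Cdc45 and E2f1), of which E2f1 had at most 3 counts in any library of these groups and Cdc45 was over the floor in 1. Between Lean VAT and Lean LN, limma voom called 2 higher and 1 lower (Stmn1), DESeq2 called 2 lower (Tpx2 and Stmn1), and 1 was lower (Stmn1) without the 3 libraries that lacked many genes. Between HFD VAT and Lean VAT, DESeq2 called 2 members higher and 2 lower, and for the diet by tissue difference 1 lower.

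Over all genes, HFD VAT against HFD LN had 714 calls, 441 with no filter and 2578 with DESeq2. Lean VAT against Lean LN had 476, 1569 with DESeq2 and 1350 with limma voom. HFD VAT against Lean VAT had 9, with 2 under no filter, 769 by DESeq2, 32 by limma voom, 1 with the replicate block, 0 with only the groups compared, 62 without the 3 libraries, 3 at 50 CPM or more, and 3 to 40 on leaving out 1 library. HFD LN against Lean LN had 0, with 236 by DESeq2, 3 by limma voom and 0 to 1 on leaving out 1 library. The diet by tissue difference had 3, with 1 under upper quartile scaling, no filter or the filter of 5 CPM, 635 by DESeq2, 6 by limma voom, 0 with the replicate block or at 50 CPM or more, 46 without the 3 libraries and 0 to 24 on leaving out 1 library. Members without overlap numbered 2 to 5 (HFD tissues), 2 to 4 (lean tissues) and 0 to 4 (VAT diets) on leaving out 1 library. With all libraries 15.2%, 12.9% and 3.22% of all genes had no overlap there. The share over all genes was not computed on leaving out a library, where fewer libraries make overlap less likely for any gene, so these member counts have no background. The share of calls that were higher was 46% with DESeq2 against 58.8% (HFD tissues), and 57.8% with DESeq2 and 55.8% without the 3 libraries against 69.7% (lean tissues). The cause was not tested.

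Same-numbered libraries of different groups did not deviate together (24 pairs, r of -0.07 to 0.04), and the labels state no pairing. The large spread between libraries could hide a pairing, so these values cannot exclude one. With the replicate block 505 and 337 genes were called between tissues, and 4 of 16 libraries correlated best with their own number. A gene at 0 is limited to 3 counts by depth, and no analysis distinguished absence of RNA in the cells from loss in the library.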

Other observations

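The genes whose level followed the mean log2(CPM + 1) of the 39 genes most closely over the 16 libraries were Polk, a translesion DNA polymerase (Pearson r = 0.751), Katnal1, a microtubule-severing katanin subunit (r = 0.727), Tmem18 (r = 0.721), Prdm1, the transcription factor Blimp-1 of effector lymphocytes (r = 0.720), and Chac2, an enzyme of glutathione breakdown (r = 0.704). They are the highest of 10106 genes with at least 5 CPM on average, they share library, depth and missing genes with the members, and the values are a description. Prdm1 also stands in the list of germinal centre and plasma cell markers.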
